A study of Mus musculus with 37 samples.

Results

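Fibroblast growth factor (FGF) receptors were measured in a mouse model of upper tract urothelial carcinoma. The members were the 5 rows of the count table with the symbols Fgfr1, Fgfr2, Fgfr3, Fgfr4 and Fgfrl1, out of 24421 gene symbols, and they were chosen by family and not by their values. RNA-seq of bulk tissue gave 37 libraries from 13 mice, all wild type (WT) female BALB/c. Mice that received the nitrosamine carcinogen BBN at 0.05% in the drinking water for 18 weeks, from an age of 6 to 7 weeks, gave the ureter or renal pelvis of the cancer side (UT, 11 libraries of 10 mice), the side without cancer (UN, 7 libraries of 7 mice) and the bladder (BBN bladder, 10 libraries of 10 mice). Mice on tap water without BBN gave both ureters of 3 mice (U, 6 libraries) and their 3 bladders (untreated bladder). UT, UN and BBN bladder libraries of the same number came from the same mouse, 1 mouse gave a right and a left UT library (UT 5R and UT 5L), and the 6 U libraries stood for 3 mice, so that p-values against U measured in part the spread between the sides of a mouse.

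FGF receptors 1 to 4 are receptor tyrosine kinases of the cell surface. They bind FGF ligands together with heparan sulfate chains or, for the hormone-like FGFs, with a Klotho co-receptor, and signal through the adaptor Frs2 to the RAS-MAPK cascade, which switches on the sprouty and dual-specificity phosphatase inhibitors that damp it and the ETS factors Etv4 and Etv5. FGFR3 is the receptor most often altered in human urothelial carcinoma, FGFR2 is typical of epithelia, which receive Fgf7 and Fgf10 from the stroma beneath, and FGFR1 is widespread in mesenchyme and vessels. Fgfrl1 binds FGFs but has no kinase domain. Counts per gene do not tell the splice forms of a receptor apart, and in bulk tissue fewer cells of a type and less RNA per cell cannot be told apart.

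On the GRCm38 build (GENCODE vM21) Fgfr1 was annotated on chromosome 8 from 25513654 to 25575718, Fgfr2 on chromosome 7 from 130162451 to 133123350, Fgfr3 on chromosome 5 from 33721674 to 33737068, Fgfr4 on chromosome 13 from 55152640 to 55168759 and Fgfrl1 on chromosome 5 from 108692382 to 108706924. The values are the counts per gene as deposited. Fgfr3 and Fgfrl1, the 2 receptors that were called between UT and U, and in opposite directions, lie on the same chromosome. Their RefSeq promoter windows (GRCm38.p6, plus strand, 250 bases before to 50 bases after a start) are shown so that these directions can be set beside the sequence, with the GC box GGGCGG, or its reverse complement CCGCCC, in capitals.
Fgfr3, chr5:33721474-33721773: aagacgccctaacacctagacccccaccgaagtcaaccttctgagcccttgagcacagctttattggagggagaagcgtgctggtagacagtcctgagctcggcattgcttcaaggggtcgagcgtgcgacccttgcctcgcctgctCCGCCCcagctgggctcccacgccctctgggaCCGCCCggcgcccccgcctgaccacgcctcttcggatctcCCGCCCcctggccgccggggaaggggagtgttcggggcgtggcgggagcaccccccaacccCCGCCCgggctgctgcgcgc
Fgfr3, second start, chr5:33722056-33722355: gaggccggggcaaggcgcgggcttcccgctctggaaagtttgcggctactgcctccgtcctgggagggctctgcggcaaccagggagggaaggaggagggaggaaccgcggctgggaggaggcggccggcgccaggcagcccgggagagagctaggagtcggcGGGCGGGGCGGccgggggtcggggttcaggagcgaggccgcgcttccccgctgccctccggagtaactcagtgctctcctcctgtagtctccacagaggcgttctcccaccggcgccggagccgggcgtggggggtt
Fgfrl1, chr5:108693979-108694278: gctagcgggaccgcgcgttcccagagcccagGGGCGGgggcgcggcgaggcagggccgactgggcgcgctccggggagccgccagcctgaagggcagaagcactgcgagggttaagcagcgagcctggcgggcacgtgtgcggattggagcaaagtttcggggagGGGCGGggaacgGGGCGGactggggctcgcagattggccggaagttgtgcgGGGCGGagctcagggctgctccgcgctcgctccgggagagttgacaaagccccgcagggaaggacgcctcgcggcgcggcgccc
Both strands were searched and overlapping matches were counted. The GC box was found 4 times and 2 times in the Fgfr3 windows and 4 times in the Fgfrl1 window, against at least 1 match in 35.9% of 32544 distinct promoters of the same length. The letters CCGGAA of the ETS core were found 1 time in the Fgfrl1 window and 0 times in the Fgfr3 windows (15.0% of all promoters), and TGANTCA, the AP-1 site, 0 times in any of the 3 (7.79% of all promoters). The GC content was 69.7%, 73.0% and 73.7% in the order shown, against a median of 53.0% over all promoters.

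The libraries held from 3557697 to 18793560 counts. Urothelial markers (19 genes) were found in every library, but 2 of the 7 UN libraries held little of them: their summed level was 299 CPM (counts per 1000000 counts of the library) in UN 2 and 1502 CPM in UN 6, against 2591 to 14016 CPM in the other 5. Pparg, 1 of the 19, was at 83.8 to 279 CPM in UN and thus made up at least 83.8 of the 299 CPM of UN 2. Its mean was 335 CPM in U and 214 CPM in untreated bladder, while the mean sum of the list was 3797 and 26657 CPM. The 7 adipocyte markers summed to 18689 to 28558 CPM in U, 4147 to 25598 CPM in UN, 35.5 to 15504 CPM in UT, 45.7 to 2655 CPM in BBN bladder and 399 to 1229 CPM in untreated bladder. Kidney tubule markers summed to 2522 CPM in UT 4 and to at most 217 CPM in the other UT libraries, and liver markers to 870.2 CPM in BBN bladder 3. The RNA integrity number was under 5 in 5 libraries, BBN bladders 1, 3 and 4 among them with UN 6 and U 1R.

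Fgfr3 was called higher in UT than in U. In the untreated ureter it ranged from 18.3 to 29.0 CPM, median 22.0 (22.9 ± 4.47, mean ± SD, n = 6). In UN it ranged from 3.02 to 178 CPM, median 65.8 (62.0 ± 60.6, n = 7), and in UT from 28.9 to 427 CPM, median 107 (151 ± 120, n = 11). UT 9 alone lay within the range of U, and the other 10 UT libraries lay above it, the lowest of them at 62.1 CPM.

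Against U, Fgfr3 rose 5.38-fold in UT (log2 fold change 2.43, SE 0.57, adjusted p = 0.00188, edgeR quasi-likelihood test with Benjamini-Hochberg adjustment). A gene was called at an adjusted p under 0.1 with a fold change of at least 2, and in UT against U 1 of the 4 receptors tested was called higher and 1 lower, beside 30.9% of 15658 genes called in either direction (18.7% higher and 12.3% lower). The call held at 2.14 to 2.51 on the log2 scale when each UT or U library was left out, and at 2.34 with an adjusted p of 0.0561 (edgeR) when the 2 ureters of a mouse were summed, so that U stood for 3 mice. With the RNA integrity number as a covariate the log2 difference was 1.69 (adjusted p = 0.0305, edgeR). The summed urothelial markers were 2019 to 16342 CPM in UT and 2473 to 4623 CPM in U, with 8 of 19 called higher and 5 lower in UT, and their part in the Fgfr3 difference was not tested. Per 1000 CPM of urothelial markers, Fgfr3 was 4.93 to 7.39 CPM in U and 5.89 to 37.6 CPM in UT, with medians of 6.28 and 12.7.

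Between the 2 sides of the treated mice, Fgfr3 was 1.24 higher in UT than in UN on the log2 scale (SE 0.51, adjusted p = 0.140, edgeR), which did not pass. It was higher on the cancer side in 5 of the 7 mice with both libraries, and the mice T1 and T7 had the opposite order. Without UT 9 the difference was 1.36 with an adjusted p of 0.0770 (edgeR), and without UN 7, the UN library with the most Fgfr3, it was 1.67 with an adjusted p of 0.0434 (edgeR). DESeq2 called it higher in UT (1.25, adjusted p = 0.0731), and with the RNA integrity number as a covariate it was 0.56 (adjusted p = 0.832, edgeR). Against U, the UN libraries gave a log2 difference of 1.19 (SE 0.57, adjusted p = 0.170, edgeR). Without the urothelium-poor libraries UN 2 and UN 6, whose Fgfr3 levels were 3.02 and 8.34 CPM, it was 1.55 with an adjusted p of 0.0366 (edgeR), and without UN 2 alone 1.39 with 0.0666.

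In the bladder the mean of Fgfr3 hid a wide spread. The untreated bladders were at 89.2, 99.8 and 96.7 CPM (95.2 ± 5.46, n = 3), and the BBN bladders ran from 5.34 to 290.4 CPM, median 101 (108 ± 97.9, n = 10). The BBN bladders lay on both sides of the untreated ones: bladders 1, 3, 4 and 6 were at 31.3 CPM or less, and bladders 5, 7 and 10 at 167 CPM or more. The log2 difference was 0.25 (SE 0.76, adjusted p = 0.852, edgeR), with a 95% interval of -1.24 to 1.73. Of the urothelial markers 8 of 19 were called lower and 1 higher in BBN bladder, at 2067 to 19770 against 26182 to 27526 CPM in sum, and their part was not tested. Per 1000 CPM of these markers Fgfr3 was 2.58 to 23.2 CPM in BBN and 3.24 to 3.8 CPM in untreated bladder. The library name of BBN bladder 6 carries the letter T that marks the cancer side among the ureters, where those of the other BBN bladders carry N, while its title and tissue are those of the other bladders, and what T stands for there is not known. Without the BBN bladders of low RNA integrity and bladder 6 the difference was 0.81 with an adjusted p of 0.111 (edgeR).

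The untreated ureter held less Fgfr3 than the untreated bladder of the same mice, in 3 of 3 mice and with ranges apart, as for 39.1% of 18959 genes that were lower in U without overlap. In the fit of all 37 libraries the log2 difference of -1.75 (SE 0.75) did not pass (adjusted p = 0.131, edgeR). With the mouse as a block in these 9 libraries it was -1.70 with an adjusted p of 1.57e-06 (edgeR), and with the U and untreated bladder libraries alone -1.68 with 6.58e-07 (edgeR). The urothelial markers summed to 2473 to 4623 CPM in U and 26182 to 27526 CPM in untreated bladder. Per 1000 CPM of these markers Fgfr3 was thus 4.93 to 7.39 CPM in the ureter and 3.24 to 3.8 CPM in the bladder, the reverse order.

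**Figure D1:**
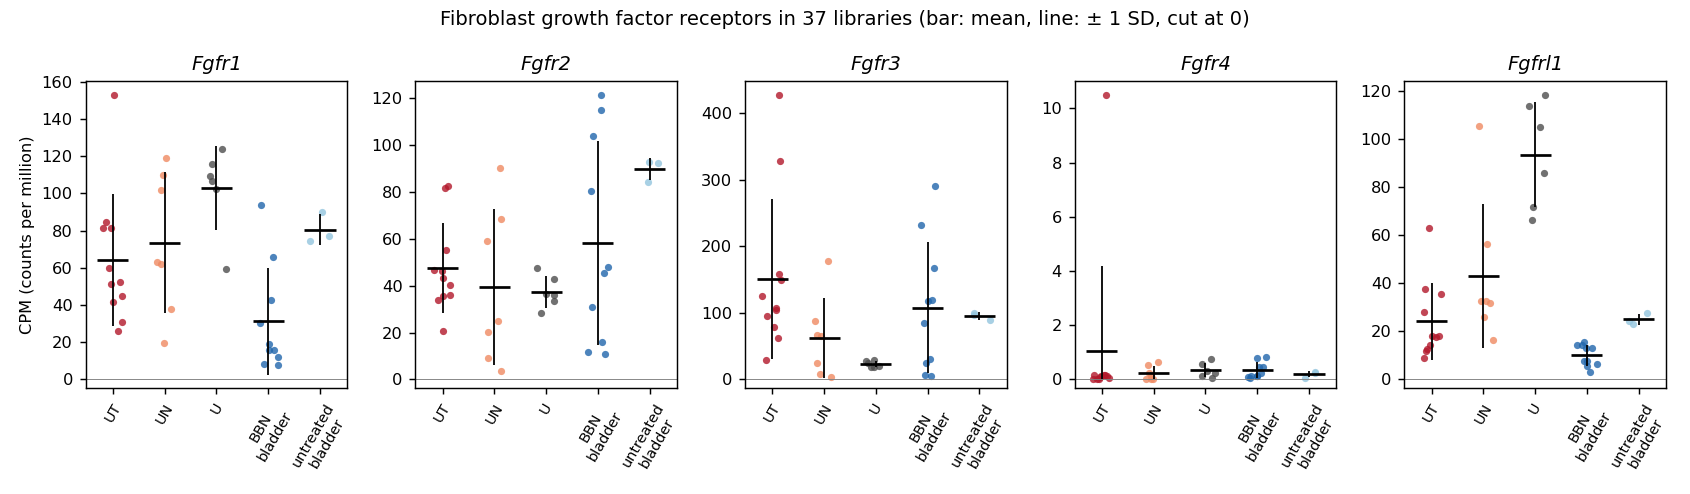
Levels of the 5 receptors in CPM (linear axes from 0, 1 panel per gene) in the 37 libraries by group, with each library as a point, the group mean as a bar and 1 SD as a line cut at 0. Fgfr3 lay between 18.3 and 29.0 CPM in U and reached 427 CPM in UT, Fgfrl1 showed the opposite order of means among the ureter groups, and Fgfr4 was near 0 in every library but UT 4 at 10.5 CPM.

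Fgfr2, the receptor of epithelia for Fgf7 and Fgf10, did not differ between the ureter groups by more than the spread. It ranged from 28.4 to 47.7 CPM, median 36.2, in U (37.4 ± 6.83, n = 6), from 3.75 to 90.3 CPM, median 24.9, in UN (39.4 ± 33.1, n = 7) and from 20.8 to 82.5 CPM, median 43.1, in UT (47.5 ± 19.3, n = 11). The UT and UN ranges both enclosed that of U, and the lowest values were those of UN 2 and UN 6. The log2 differences were 0.06 for UT against U (95% interval -0.65 to 0.77), 0.19 for UT against UN (-0.49 to 0.87) and -0.13 for UN against U (-0.91 to 0.65), with adjusted p-values of 0.911, 0.747 and 0.857 (edgeR). The direction of each turned in at least 1 other setting.

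The bladder held the highest mean level of Fgfr2. The untreated bladders were at 92.8, 92.4 and 84.4 CPM (89.8 ± 4.74, n = 3), above every U library, an order without overlap that 39.1% of genes had. The log2 difference of U from untreated bladder was -0.96 (SE 0.52, adjusted p = 0.268, edgeR) in the fit of all libraries and -0.90 with an adjusted p of 3.91e-05 (edgeR) with the mouse as a block, a change of less than 2-fold in both. BBN bladders ranged from 11 to 121 CPM, median 46.8 (58.4 ± 43.5, n = 10) and differed by -0.50 from the untreated ones (SE 0.49, adjusted p = 0.513, edgeR).

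The ratio of Fgfr2 to Fgfr3 was lower in the exposed ureters than in U. The log2 ratio of Fgfr2 to Fgfr3 counts within a library, which does not depend on how libraries are scaled, was 0.51 to 0.91 in U (mean 0.71 ± 0.15, n = 6). In every UN library it was lower, -1.42 to 0.46 (-0.39 ± 0.77, n = 7), and in UT it was -2.37 to -0.47 (-1.41 ± 0.60, n = 11). The UN and UT values lay below those of U without overlap, by little for the highest UN library, and UN 2 and UN 6 were included. How many other pairs of genes were apart likewise was not counted, and U stood for 3 mice. The ratio also carries the Fgfr3 difference between UT and U given above, and is not independent of it. Of the other ratios, Fgfr1 to Fgfr2 overlapped between U (1.07 to 1.78) and both UN (-0.12 to 4.04) and UT (-1.67 to 1.96). Fgfr1 to Fgfr3 was 1.57 to 2.69 in U, which UN overlapped (-1.49 to 4.35) and UT did not (-4.04 to 1.49). The bladder showed no such separation: the ratio was -0.20 to 0.06 in untreated and -1.52 to 1.56 in BBN bladder. No test was run on the ratios.

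Fgfr1, the receptor of stroma and vessels, was highest in U, where it ranged from 59.6 to 124 CPM, median 108 (102.9 ± 22.5, n = 6), with U 3L apart from the other 5. In UN it ranged from 19.8 to 119 CPM, median 63.3 (73.4 ± 37.8, n = 7) and in UT from 25.9 to 153 CPM, median 52.6 (64.3 ± 35.6, n = 11), and the ranges overlapped. UT against U gave -0.96 on the log2 scale (SE 0.30, adjusted p = 0.0124, edgeR), which passed the p but at 1.94-fold stayed under the 2-fold threshold. Without UT 3, UT 8, UT 9 or U 3L it passed both. UT against UN gave -0.39 (SE 0.29, adjusted p = 0.390, edgeR), and UN against U gave -0.57 (SE 0.34, adjusted p = 0.263, edgeR). With the 2 ureters of a mouse summed, the difference of UT from U was -0.93 with an adjusted p of 0.108 (edgeR).

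The lowest Fgfr1 levels were those of the BBN bladder, from 7.64 to 93.9 CPM, median 17.6 (31.2 ± 28.5, n = 10), against 90.1, 76.9 and 74.7 CPM in the untreated bladders (80.5 ± 8.34, n = 3). In 9 of the 10 BBN bladders the level lay below the untreated range, and bladder 5 lay above it. The log2 difference of -1.24 (SE 0.48, adjusted p = 0.118, edgeR) did not pass, but did without BBN bladder 5 (-1.53, adjusted p = 0.0247, edgeR), without BBN bladder 2 (-1.36, adjusted p = 0.0961, edgeR) and in DESeq2 (-1.17, adjusted p = 0.0664). Endothelial markers, 7 genes, summed to 36.2 to 371 CPM in BBN and 208 to 279.7 CPM in untreated bladder, with 1 of 7 called lower, and fibroblast markers to 784 to 5694 and 5292 to 7679 CPM, with 4 of 10 called lower. Their part in the Fgfr1 level was not tested. Fgfr1 was called higher in UN than in BBN bladder (log2 1.36, SE 0.34, adjusted p = 0.00569, edgeR), in 6 of 7 mice, and 5 of the 7 endothelial markers were called higher with it. BBN bladders 1, 3 and 4, of low RNA integrity, held 11.8, 15.7 and 8.57 CPM of Fgfr1, under the median of the BBN bladders. Bladders 6 and 10 lay under it too, at 7.64 and 16.1 CPM. For UT over BBN bladder the log2 difference of 0.99 (SE 0.31, adjusted p = 0.0133, edgeR) was 1.99-fold and missed the 2-fold threshold.

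Fgfr4, typical of liver and kidney, was at the edge of detection. It had 0 to 10 counts in 36 libraries, at most 0.843 CPM. In the 6 libraries with 0 counts, 3 counts would have been 0.200 to 0.642 CPM, counting error alone considered. UT 4 held 132 counts (10.5 CPM), and in the same library the kidney tubule markers Umod and Slc34a1 were at 931 and 514 CPM. BBN bladder 3, with liver markers at 870.2 CPM, held the 0.843 CPM, which was 3 counts in the library with the fewest counts. BBN bladder 5 and U 3R, with liver markers at 2.65 and 9.07 CPM, held 10 counts each (0.787 and 0.770 CPM). The part of kidney or liver tissue in these levels was not tested. Fgfr4 was left out of the ureter and bladder fits by the filter on low counts, and was tested in the fit of all libraries. There the log2 difference of UT from BBN bladder was 1.31 (SE 0.96, adjusted p = 0.321, edgeR) and turned to -2.10 in DESeq2 (adjusted p = 0.0128), a reversal whose cause was not tested. The other UT libraries were at 0 to 0.179 CPM and the BBN bladders at 0.0662 to 0.843 CPM.

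Fgfrl1, the receptor without a kinase, was highest in the untreated ureter and fell in UT. In U it ranged from 66.5 to 118 CPM, median 95.5 (93.6 ± 22.0, n = 6), in UN from 16.3 to 105 CPM, median 32.6 (43.1 ± 30.01, n = 7) and in UT from 9.04 to 63.2 CPM, median 18.0 (24.2 ± 16.1, n = 11). The UT and U ranges did not overlap, as for 4.38% of genes that were lower in UT without overlap, while 6 of the 7 UN libraries lay below U and UN 9 lay within it. Against U, Fgfrl1 fell by 2.21 on the log2 scale in UT (4.63-fold, SE 0.40, adjusted p = 0.000225, edgeR). With the 2 ureters of a mouse summed it fell by 2.15 (adjusted p = 0.0139, edgeR). All 7 adipocyte markers were called lower in UT than in U, at 35.5 to 15504 against 18689 to 28558 CPM in sum with 1 of the 7 (Ucp1 or Lep) at 0 in 4 UT libraries. Of the smooth muscle markers 8 of 10 were called lower, at 387 to 2640 against 1907 to 3521 CPM in sum. The part of both lists in the Fgfrl1 difference was not tested.

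Fgfrl1 was called lower in UT than in UN as well, by -1.18 on the log2 scale (SE 0.39, adjusted p = 0.0863, edgeR), as the 1 receptor of 4 called, beside 5.52% of genes (4.20% lower). It was lower on the cancer side in 6 of 7 mice, by a mean of -0.69 ± 0.88 on the scale of log2(CPM + 1). The call was lost with the mouse as a block (-0.96, adjusted p = 0.799, edgeR), with UT and UN alone (-1.19, adjusted p = 0.206, edgeR), without UN 2 and UN 6 (-0.94, adjusted p = 0.493, edgeR), and without any 1 of the 9 libraries UT 2, UT 4, UT 5R, UT 5L, UT 7, UT 10, UN 2, UN 6 and UN 9, the smallest difference being that without UN 9 (-0.83, adjusted p = 0.213, edgeR). With it, 7 of 10 smooth muscle markers were called lower in UT than in UN (387 to 2640 against 355 to 6960 CPM in sum, median log2 difference -1.42) and 0 of 7 adipocyte markers (median -1.71), and their part was not tested. Over all genes the count of calls moved as widely: 864 genes were called, against 0 with the mouse as a block (623 at an unadjusted p under 0.05), 1391 in DESeq2 and from 5 to 1854 with 1 library left out. UN against U gave -1.03 (SE 0.45, adjusted p = 0.128, edgeR), and 0 of the 4 receptors were called there, beside 13.7% of genes. None of the 4 had an adjusted p under 0.1 there, though Fgfr3 and Fgfrl1 had an unadjusted p under 0.05, of 0.0492 and 0.0306 (edgeR). DESeq2 called Fgfrl1 lower (-1.05, adjusted p = 0.0934), and so did edgeR without UN 2 and UN 6 (-1.31, adjusted p = 0.0826).

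Fgfrl1 was also called lower in BBN than in untreated bladder. The untreated bladders were at 23.1, 27.6 and 24.3 CPM (25.0 ± 2.34, n = 3), and the BBN bladders ranged from 3.16 to 15.4 CPM, median 10.4 (10.1 ± 4.43, n = 10), without overlap, as for 12.0% of genes in that direction. It fell by 1.07 on the log2 scale (2.1-fold, SE 0.28, adjusted p = 0.0269, edgeR), the 1 receptor of 4 called, beside 13.3% of 18050 genes (5.74% lower). The size lay at the threshold: with RLE normalization, in DESeq2 and without the low-integrity bladders it was -0.98, each with an adjusted p under 0.05 (0.0420, 0.00346 and 0.0111), and thus under 2-fold. It was under 2-fold also without BBN bladder 1 (-0.95) or 7 (-0.98), and without untreated bladder 1, 2 or 3 the adjusted p was 0.107, 0.165 or 0.127 (edgeR). Over all genes tested the median log2 difference was 0.25. In the same comparison 8 of 19 urothelial, 4 of 10 fibroblast, 1 of 7 endothelial, 1 of 10 smooth muscle and 0 of 6 adipocyte markers were called lower, and their part in the Fgfrl1 difference was not tested.

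Fgfrl1 was called higher in U than in untreated bladder, and in UN and UT than in BBN bladder. In U it was 2.21 higher on the log2 scale than in untreated bladder (4.63-fold, SE 0.55, adjusted p = 0.00631, edgeR), in 3 of 3 mice and without overlap (13.4% of genes were higher in U without overlap), and it was the 1 receptor of 5 called, beside 15.2% of genes (6.62% higher), or 4602 instead of 2889 genes with the mouse as a block. UN exceeded BBN bladder by 2.26 (SE 0.35, adjusted p = 2.50e-05, edgeR), in 7 of 7 mice and without overlap (1.27% of genes), and Fgfr1 and Fgfrl1 were the 2 of 5 receptors called, beside 18.3% of genes (8.68% higher). UT exceeded BBN bladder by 1.14 (SE 0.31, adjusted p = 0.00564, edgeR), in 8 of 10 mice, as the 1 of 5 called, beside 28.8% of genes (6.99% higher). With the mouse as a block the last was 0.83 (adjusted p = 0.0911, edgeR), under 2-fold, and the counts of genes called in these 2 comparisons were 1460 and 1198 instead of 3473 and 5468. Adipocyte markers separated the tissues too: 7 of 7 were called higher in U than in untreated bladder, with a median log2 difference of 6.52. Per 1000 CPM of these markers Fgfrl1 was 2.33 to 5.53 CPM in U and 22.5 to 60.9 CPM in untreated bladder, the reverse order. In UN it was 1.28 to 6.31 CPM (median 3.64), in UT 1.73 to 255 CPM (median 6.61) and in BBN bladder 1.19 to 287 CPM (median 81.3). The part of these markers in the Fgfrl1 differences was not tested.

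The change after BBN was compared between tissues as UN minus U against BBN bladder minus untreated bladder. Of the 5 receptors 0 were called, beside 2.21% of genes, with log2 differences of 0.70 for Fgfr1, 0.42 for Fgfr2, 0.99 for Fgfr3, -1.73 for Fgfr4 and 0.04 for Fgfrl1. Their unadjusted p-values were 0.248 or more and the adjusted ones 0.628 or more (edgeR), and DESeq2 called 0 of the 5 too. The intervals were wide: 95% of -0.84 to 2.82 for Fgfr3 and of -1.12 to 1.21 for Fgfrl1.

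**Figure D2:**
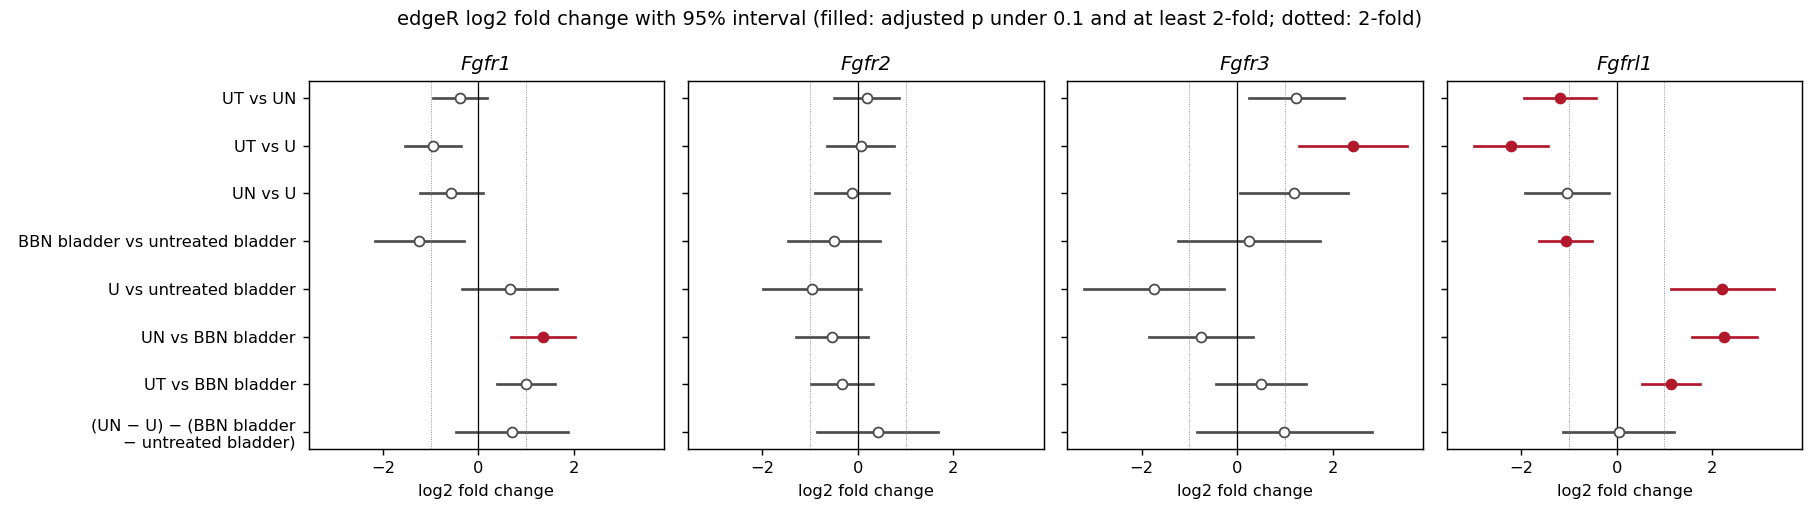
Log2 fold change (x axis, dotted lines at 2-fold) of the 4 expressed receptors in each of 8 comparisons, as edgeR estimate with its 95% interval, filled where the adjusted p was under 0.1 and the change at least 2-fold. Fgfrl1 was called in 6 of the 8 comparisons, Fgfr3 and Fgfr1 in 1 each and Fgfr2 in 0.

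The groups were set in the order of their mean levels for each receptor. Of the 20 pairs of neighbours, compared by two-sided permutation tests on log2(CPM + 1) (exact where a group had fewer than 10 libraries), 3 had an adjusted p under 0.1 and 0 under 0.05. The libraries were exchanged freely, without regard to the mouse that UT, UN and BBN bladder libraries share. The right and left ureters of a mouse were exchanged as separate units too, although the 6 U libraries came from 3 mice. The same held for the right and left UT libraries of the mouse that gave both. The permutation p-values against U thus measured in part the spread between the sides of a mouse. The 3 under 0.1 were 0.0532 for Fgfrl1 between UT and BBN bladder (unadjusted permutation p = 0.00266), 0.0544 for Fgfrl1 between U and UN (exact permutation p = 0.00816) and 0.0544 for Fgfr1 between UT and BBN bladder (permutation p = 0.00738). For Fgfr3 the order was UT, BBN bladder, untreated bladder, UN, U, and no neighbours in it had an adjusted permutation p under 0.1.

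Scaled by exon length, so that receptors can be compared within a library, the leading receptor was not the same in every group. Fgfrl1 held 52.5 ± 6.13% of the summed CPM per kilobase of the 5 receptors in U (n = 6) and was the highest of the 5 in 6 of 6 libraries. In UT Fgfr3 held 48.1 ± 19.7% (n = 11) and was the highest in 9 of 11, the exceptions being UT 8, led by Fgfr1, and UT 9, led by Fgfrl1. UN was divided, with Fgfrl1 highest in 3, Fgfr1 in 2 and Fgfr3 in 2 of 7 libraries. In the bladder Fgfr3 led in 3 of 3 untreated (33.6 ± 2.06%) and in 8 of 10 BBN libraries (44.9 ± 17.4%), and Fgfr1 and Fgfr2 led in 1 each. The order outside U and UT depended on the length used. Per kilobase of the longest coding transcript, which for Fgfr2 has 3323 bases against 5115 in the union of its exons, Fgfr2 led in 3 of 3 untreated bladders, in 4 of 10 BBN bladders and in UN 4, and Fgfr3 led in 6 of 10 BBN bladders. The leading receptor was the same with either length in each U and UT library. In U Fgfr3 held 7.82 ± 2.06%, and Fgfr2 held 10.9 ± 2.25% in U and 14.3 ± 3.11% in UT. These shares are levels per library and were not tested.

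**Figure D3:**
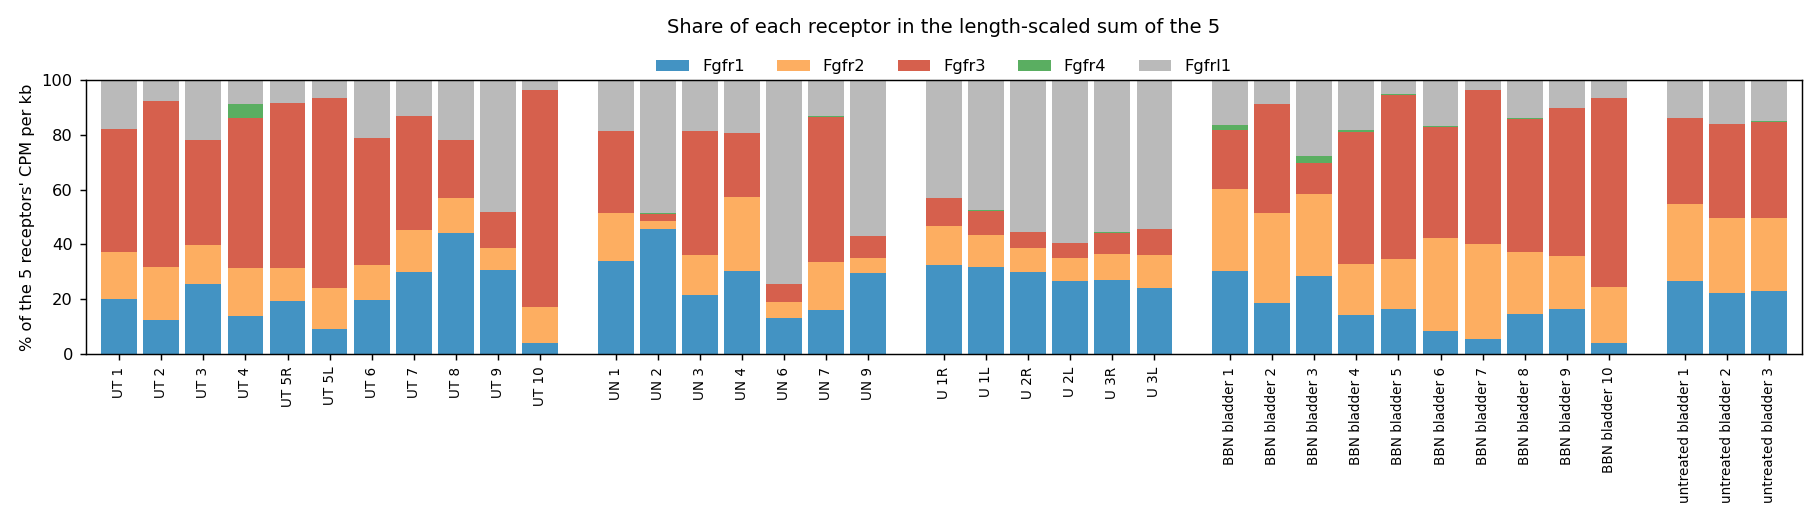
Share of each receptor (%) in the summed CPM per kilobase of exon of the 5 receptors, 1 bar per library. Fgfrl1 made up 42.9 to 59.4% of each U bar, and Fgfr3 made up 79.0% of the bar of UT 10.

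Across the 37 libraries the receptors fell into pairs. The Spearman rho of CPM was 0.765 between Fgfr2 and Fgfr3 and 0.789 between Fgfr1 and Fgfrl1, against -0.428 between Fgfr3 and Fgfrl1. Fgfr3 ran with the summed urothelial markers (rho 0.775), Fgfrl1 with the adipocyte (0.848) and Fgfr1 with the endothelial markers (0.868). Other lists came close: Fgfrl1 had a rho of 0.785 with the endothelial and 0.734 with the kidney tubule markers, and Fgfr1 of 0.781 with the kidney tubule markers. The kidney tubule sum was mostly 1 gene, Aqp1, at a mean of 196 of 199 CPM in U and 141 of 154 CPM in UN. In BBN bladder Aqp1 was 37.6 of 51.6 CPM. Of the 6 kidney tubule markers tested, 5 were called higher in UT than in U and 1 lower. These values describe the libraries, which share mice, depth and tissue make-up. The genes most like Fgfr3 among the 14366 ranked were Tjap1 (0.953), Utp18, Gyltl1b, Chka and Luzp1, and those most like Fgfr2 were Serinc5 (0.915), Kdm5b, Evpl, Srp68 and Trp63, the last a transcription factor of basal urothelium. Those most like Fgfrl1 were Pde3b (0.963), an enzyme of insulin signalling in fat cells, Sort1, Mfsd8, Crat and Slc5a6, and those most like Fgfr1 were Zbtb20 (0.914), 9430020K01Rik, Tgfbr3, Slco2b1 and Robo4, the last a receptor of endothelium.

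**Figure D4:**
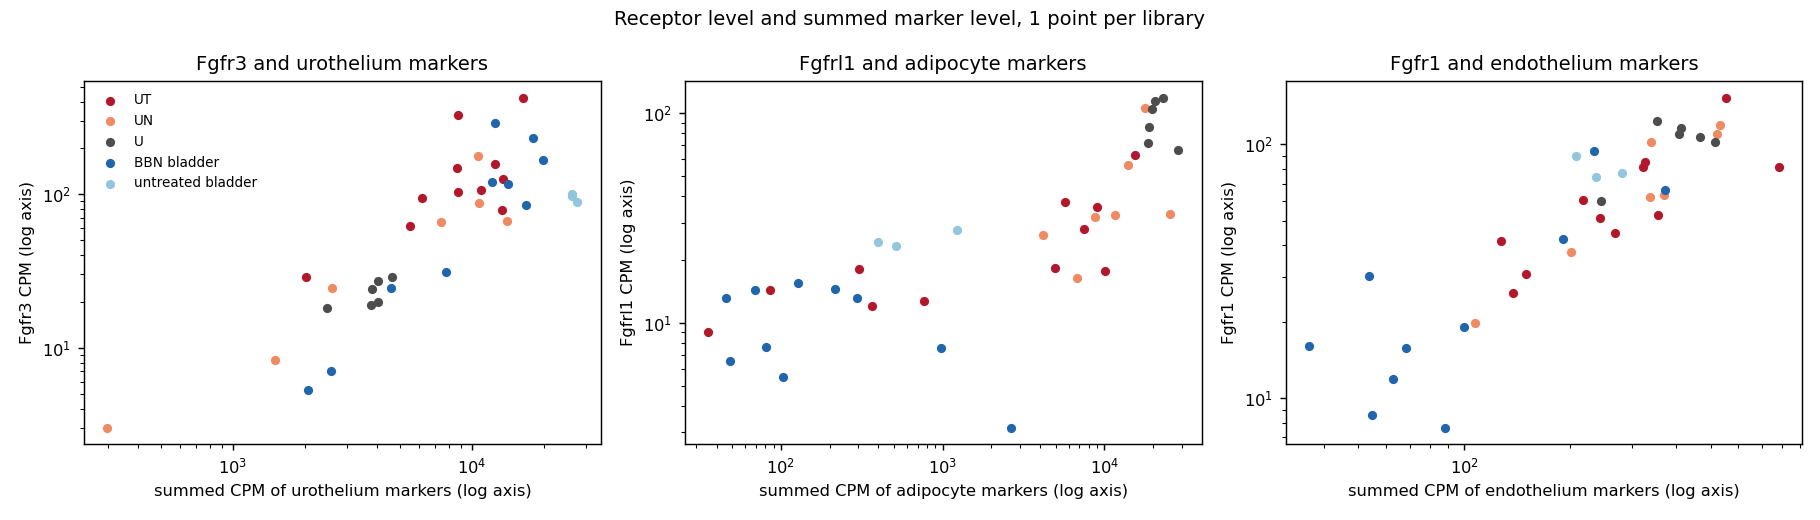
Receptor CPM against the summed CPM of a marker list (both log axes), 1 point per library, for Fgfr3 and urothelial, Fgfrl1 and adipocyte, and Fgfr1 and endothelial markers. U libraries, with 18689 to 28558 CPM of adipocyte markers, lie at the upper right for Fgfrl1, and untreated bladders, with 26182 to 27526 CPM of urothelial markers, lie below many UT libraries for Fgfr3.

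Among the ligands, Fgf10, which signals from stroma to Fgfr2, fell in UT from 47.6 ± 6.07 CPM in U (n = 6) to 12.7 ± 12.7 CPM (n = 11; log2 -2.18, SE 0.59, adjusted p = 0.00481, edgeR). Fgf2 fell by 1.57 from a low level of 2.68 CPM (adjusted p = 0.0208, edgeR). These were 2 of the 6 tested of 15 paracrine ligands, and 0 were higher, beside 12.3% of all genes lower and 18.7% higher. Fgf23, the hormone that controls phosphate, was at 3 counts in all over the 6 U libraries and at 333 counts over the UT libraries, and was called higher in UT, UN and BBN bladder against the untreated tissue (adjusted p = 0.00386, 0.0119 and 0.0763, edgeR). It reached 62.7 CPM in 1 BBN bladder. With the ureters of a mouse summed, Fgf2 did not pass in UT (adjusted p = 0.136, edgeR), nor did Fgf23 in UN (adjusted p = 0.182, edgeR). In the bladder Fgf1, which binds all 4 kinase receptors, fell from 113 ± 27.6 CPM (n = 3) to 30.2 ± 29.0 CPM (n = 10; log2 -1.81, adjusted p = 0.0742, edgeR). The intracellular homologous factors Fgf11 and Fgf14, which do not bind FGF receptors, fell in UT against U by 1.32 and 2.38 (adjusted p = 0.0142 and 0.00478, edgeR), as 2 of the 4 tested. Untreated ureter and bladder differed in Fgf10 and Fgf1: Fgf10 was 3.87 higher and Fgf1 1.57 lower in U on the log2 scale (adjusted p = 0.0188 and 0.0808, edgeR). Marker lists moved with these ligands: 7 of 7 adipocyte and 8 of 10 smooth muscle markers were called lower in UT than in U, 8 of 19 urothelial and 4 of 10 fibroblast markers lower in BBN than in untreated bladder, and 7 of 7 adipocyte markers higher and 14 of 19 urothelial markers lower in U than in untreated bladder. Their part was not tested.

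Of the co-receptors and ligand carriers, Fgfbp1, a secreted carrier that releases FGFs from the matrix, was called higher in UT, UN and BBN bladder than in the untreated tissue. It was 0.878 ± 0.660 CPM in U (n = 6), 22.9 ± 29.2 CPM in UN (n = 7) and 60.6 ± 88.8 CPM in UT (n = 11), and 1.75 ± 0.969 against 62.8 ± 67.4 CPM in untreated and BBN bladder. The log2 fold changes were 5.80 in UT, 4.50 in UN and 5.35 in BBN bladder (adjusted p = 0.000673, 0.0144 and 0.00957, edgeR). With the ureters of a mouse summed, Fgfbp1 did not pass in UN (adjusted p = 0.188, edgeR). Klb, the Klotho co-receptor of fat and liver, fell in UT against U by 2.03 (adjusted p = 0.0376, edgeR), and was 61.2 CPM in U against 0.593 CPM in untreated bladder. The 7 adipocyte markers moved with it, 7 of 7 called lower in UT than in U (median log2 difference -2.55) and 7 of 7 higher in U than in untreated bladder, and their part was not tested. In the bladder the leucine-rich Flrt3 fell by 1.79 after BBN (adjusted p = 0.00332, edgeR). In the comparison of UT with U its relative Flrt1 rose by 1.66 and the cadherin Cdh2 fell by 1.47 (adjusted p = 0.0240 and 0.0188, edgeR), and with the ureters of a mouse summed Klb, Flrt1 and Cdh2 did not pass (adjusted p = 0.177, 0.149 and 0.129, edgeR). Relative to U, 2 of the 9 tested were called up and 2 down in UT, beside 18.7% and 12.3% of all genes.

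Of the heparan sulfate genes, 7 of 22 tested were called up and 4 down in UT relative to U, beside 18.7% and 12.3% of all genes. In BBN against untreated bladder 1 of 23 was higher and 5 were lower, beside 7.61% and 5.74% of all genes. The 6-O-sulfotransferase Hs6st2 rose in UT, UN and BBN bladder (log2 3.67, 2.49 and 3.50, adjusted p = 9.67e-05, 0.00877 and 0.0131, edgeR). Heparanase, Hpse, rose in UT and UN over U (1.79 and 1.49, adjusted p = 0.00148 and 0.0244, edgeR), and so did the syndecan Sdc4 in UT (1.80, adjusted p = 0.000528, edgeR) and the 3-O-sulfotransferase Hs3st1 in UN (1.37, adjusted p = 0.0135, edgeR). The syndecan Sdc2 and the basement membrane proteoglycan Hspg2 fell in UT by 1.45 and 1.14 (adjusted p = 0.000582 and 0.0433, edgeR). The glypican Gpc3 fell in UT and in BBN bladder (-1.69 and -2.17, adjusted p = 0.0463 and 0.00306, edgeR). With the ureters of a mouse summed, Hs6st2, Hpse and Hs3st1 did not pass in UN (adjusted p = 0.151, 0.229 and 0.193, edgeR), nor did Gpc3 and Hspg2 in UT. The sulfatases Sulf1 and Sulf2, which trim heparan sulfate, fell in BBN bladder by 1.89 and 1.80 (adjusted p = 0.00785 and 0.0139, edgeR). In that comparison 4 of 10 fibroblast markers were called lower too (median log2 difference -1.09), and their part in these genes was not tested.

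Of the 18 adaptors and effectors tested, 1 was lower in UT than in U (Frs3, log2 -1.10, adjusted p = 0.00821, edgeR). By edgeR 0 were called in UT against UN, UN against U or BBN against untreated bladder, where 3, 2 and 1 had an unadjusted p under 0.05 and DESeq2 called 0, 0 and 1, beside 5.52%, 13.7% and 13.3% of all genes called by edgeR. In UT 6 of the 8 target genes and 2 of 10 feedback inhibitors were higher than in U, and 0 were lower, beside 18.7% of all genes higher and 12.3% lower. Etv4 rose from 0.295 ± 0.232 CPM (n = 6) to 5.84 ± 5.53 CPM (n = 11; log2 4.00, adjusted p = 0.000560, edgeR), Fosl1 by 3.14 and Ccnd1, the cell cycle gene cyclin D1, by 2.74 (adjusted p = 0.00389 and 3.81e-05, edgeR). The phosphatases Dusp6 and Dusp5, which switch off MAPK, rose by 1.93 and 3.15 (adjusted p = 0.000148 and 0.000110, edgeR), Dusp6 from 28.4 ± 4.51 to 130.4 ± 82.2 CPM. In BBN bladder 4 of 8 targets, with Fosl1, Etv4 and Egr1 (4.16, 3.53 and 2.28), and 2 feedback inhibitors, Dusp5 and Spry2 (2.02 and 1.35), were called higher, beside 7.61% of all genes (adjusted p = 0.00489, 0.0297, 0.0923, 0.0914 and 0.0393, edgeR). There 3 of 9 leukocyte markers were called higher, and 8 of 19 urothelial and 4 of 10 fibroblast markers lower, and their part was not tested.

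UN against U gave 4 of 8 targets and 2 of 10 feedback inhibitors higher, beside 12.5% of all genes, with Fos, Etv4 and Egr1 (3.19, 3.47 and 2.25) with Dusp5 and Dusp6 (2.44 and 1.29; adjusted p = 0.00534, 0.00880, 0.0184, 0.00452 and 0.0152, edgeR). With the 2 ureters of a mouse summed, none of the 10 pathway genes named for UN against U passed (adjusted p from 0.111 for Dusp5 to 0.229 for Hpse, edgeR), and 157 instead of 2139 genes were called. In the same setting 6 of the 21 named for UT against U no longer passed, Fgf2, Flrt1, Klb, Cdh2, Gpc3 and Hspg2. In UT against UN, 0 members of any of these lists other than the receptors were called by edgeR, beside the 5.52% of all genes. There 0 to 4 members of a list had an unadjusted p under 0.05, and DESeq2 called 2 homologous factors, 1 heparan sulfate gene and 1 target. Leukocyte markers also differed: 7 of 9 were called higher in UT and 5 of 9 in UN than in U, at 242 to 1202, 151 to 915 and 135 to 250.03 CPM in sum, and their part in the target genes was not tested.

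Between the tissues, pathway genes were called as well, beside 15.2% of all genes in U against untreated bladder, 18.3% in UN against BBN bladder and 28.8% in UT against BBN bladder. Against untreated bladder, U held more Klb (log2 6.98), Fgf2 (2.95), Fgf14 (3.60), Fgf13 (2.27) and Fgf11 (1.89) besides Fgf10, with adjusted p-values of 0.00427 to 0.0908 (edgeR). It held less of L1cam (-2.04), Flrt3 (-1.54), the carrier Fgfbp3 (-1.42), Sdc4 (-2.02), Sdc1 (-1.76) and Ccnd1 (-1.503) besides Fgf1, and each of these calls held with the mouse as a block. Over all other settings tried, 38 of 169 values of these 13 genes lost the call. Against BBN bladder, UN held more Klb (5.33), Gpc3 (1.72) and Sulf2 (1.06) and less Fosl1 (-1.74), the 4 of its 11 named genes still called with the mouse as a block. The others were Fgf2 (1.95, and -2.56 with the block), Fgf10 (1.70), Fgf18 (1.504), Fgf11 (1.33), Sulf1 (1.23), Hs6st2 (-1.70) and Spry4 (1.28), a sprouty feedback inhibitor. UT exceeded BBN bladder in Flrt1 (2.28) and Sulf1 (1.06), which kept the call with the block, and in Klb (4.18), Gpc3 (1.54) and Hpse (1.05), which did not. It held less Fgf12 (-4.35) and Fgf23 (-2.21), which lost the call with the block, and less Fgf16 (-2.95), for which the block gave no value. Over all settings tried, 13 of 44 values lost the call and 1 reversed for the 11 genes named in UN against BBN bladder. For the 8 named in UT against BBN bladder 12 of 23 lost it. Adipocyte markers were called higher in all 3 comparisons, 7 of 7, 7 of 7 and 5 of 7. In UT against BBN bladder 9 of 10 smooth muscle markers were called lower, and 6 of 9 leukocyte, 5 of 10 fibroblast and 4 of 7 endothelial markers higher. The part of these lists was not tested.

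**Figure D5:**
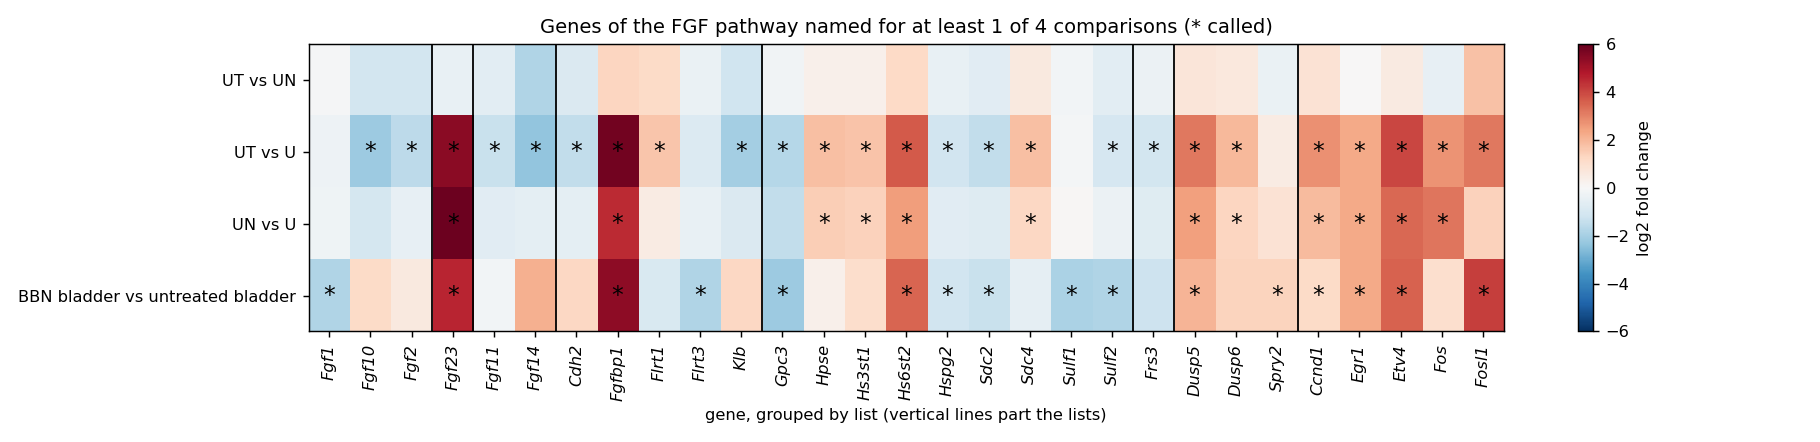
Log2 fold change (colour) of the 29 genes of the FGF pathway lists named for at least 1 of 4 comparisons, with an asterisk where the gene was called. Fgfbp1, Hs6st2, Dusp5 and Etv4 were among those called higher in UT, UN and BBN bladder against the untreated tissue, and 0 genes were called in UT against UN.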

How the data were processed

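RNA-seq libraries of bulk ureter, renal pelvis and bladder were grouped by the submitted labels. The authors deposited estimated counts per gene, which were not normalized, and the submitters' processing notes name TopHat2 2.1.1 and Cuffdiff 2.2.1. Fractions made up 21.1% of the values above 0, and the values were rounded to whole numbers for the tests, while CPM levels, ratios and shares were computed from them unrounded. Totals ran from 3557697 to 18793560 counts with a median of 13874286, and the limit given for a count of 0 covers counting error only. Estimated counts can divide reads between overlapping genes.

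Genes were filtered with filterByExpr, scaled by TMM and tested with the quasi-likelihood test of edgeR 4.0.16 in R 4.3.3, with Benjamini-Hochberg adjustment over all genes tested. The 3 fits were those of the ureter groups, of the bladder groups and of all 37 libraries, the last for the tissue contrasts and the difference of differences. Alternatives ran in limma 3.58.1 or DESeq2 1.42.0, and the fits were tested on simulated data. Levels are CPM of the library total. The neighbour tests used a pseudocount of 1 CPM with SciPy 1.17.1, the ratios an added count of 0.5, and the ranking by likeness the genes of at least 1 CPM in at least 19 libraries. Figures were drawn with matplotlib 3.10.9.

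The receptors are given in every comparison. Of each pathway list and comparison, the members past both thresholds were named, at most 3 in each direction by size of change and with a mean of at least 1 CPM in 1 group. The 5 most alike genes were named per receptor. The members and lists were chosen with earlier results of these data known. Values that fall outside the rule, such as marker genes of kidney, were chosen after they were seen.

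Libraries of the same mouse are paired by the labels. Deviations from the mean of each group correlated within mice at a median of -0.0178 for UT and UN (-0.0849 to 0.524, n = 7), 0.113 for UT and BBN bladder, -0.0505 for UN and BBN bladder and -0.0617 for U and untreated bladder. The mouse was a block in an alternative fit. Tried besides were other tools, filters, normalizations and sets of libraries, the RNA integrity number as a covariate, and leaving out each library. Leaving out UN 2 and UN 6, leaving out bladder 6 with the libraries of low integrity, summing the ureters of a mouse, and scaling by the longest coding transcript were chosen after seeing the data.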

Additional observations from a re-analysis of the deposited data

Results flagged for a closer look

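Fgfr1 was 59.6 CPM in U 3L, the nearest other U library being at 102 CPM. The gap was the only one of 24 groups of values to exceed Dixon's 95% critical value, which chance exceeds in about 1 group in 20. The right ureter of the same mouse was the nearest one. Of the U libraries U 3L also had the lowest endothelial and fibroblast marker sums (245 and 1837 CPM) and the highest adipocyte sum (28558 CPM). The cause of the gap was not tested.

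The change after BBN differed between ureter and bladder for 2 of the 23 heparan sulfate genes tested, beside 2.21% of all genes. In the same comparison the median log2 difference was 2.02 over 19 urothelial markers and 1.51 over 10 fibroblast markers, with 1 called higher in each list, and their part was not tested. For Sulf1 the difference of the changes was 2.02 on the log2 scale (adjusted p = 0.0686, edgeR), with means of 52.2 CPM in UN, 43.1 CPM in U, 22.5 CPM in BBN bladder and 92 CPM in untreated bladder. It was 1.84 in DESeq2 (adjusted p = 0.0355) and 1.93 without the libraries of low RNA integrity (adjusted p = 0.0647, edgeR). For Sdc4 the difference of the changes was 1.80 (adjusted p = 0.0805, edgeR), with means of 194 CPM in UN, 75.4 CPM in U, 235 CPM in BBN bladder and 379.9 CPM in untreated bladder. Without the low-integrity libraries it was 1.60 and did not pass (adjusted p = 0.125, edgeR), and in DESeq2 it was 1.63 (adjusted p = 0.0370).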

How the results depend on the processing

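Of 498 receptor values under other settings 432 kept their direction and their side of the threshold, 25 lost the call, 25 gained one and 16 reversed. Of 1260 values of other named genes 1142 kept both, 117 lost the call and 1 reversed. Of 145 counts and group levels 105 moved little, and 40 moved by more than 1.5 times for a count or by over 1 SD for a level. Of 1080 counts of called list members 913 stayed within 1.5 times and 167 moved further. Causes were not tested. Low counts limit the precision for Fgfr4.

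Reversals of Fgfr2 were all within its error. UT against U was -0.018 with the mouse as a random effect (limma-voom), -0.21 with RNA integrity as a covariate and -0.0505 to 0.13 with 1 library left out. UT against UN was -0.10 with the covariate, -0.17 without UN 2 and UN 6, and -0.0047 to 0.53 with 1 library left out. UN against U was 0.18 without UN 2 and UN 6 and -0.47 to 0.0627 with 1 library left out. For Fgfr3 in BBN against untreated bladder the range with 1 library left out was -0.0066 to 0.40. Fgfr4 was -2.10 in DESeq2 for UT against BBN bladder, and for UN against BBN bladder 0.18 without the libraries of low integrity and 0.14 when UN 2, UN 6 and bladder 6 were left out too. The difference of the BBN changes in Fgfrl1 was -0.0852 in DESeq2, -0.36 without the low-integrity libraries and -0.28 with the 3 others left out too. With the mouse as a block, Fgf2 was -2.56 in UN against BBN bladder.

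Calls were gained for Fgfr1 in UT against U with the mouse as a random effect (-1.08), for Fgfr1 in the bladder in the fit of all libraries (-1.30), and for Fgfrl1 in UN against U in that fit (-1.09), with the random effect (-1.48) and with the covariate (-1.28). In DESeq2 Fgfr3 in U against untreated bladder was called (-1.68) and Fgfrl1 in UT against BBN bladder fell under 2-fold (0.99).

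In UT against UN, 864 genes were called: 0 with UT and UN alone (2806 at an unadjusted p under 0.05), 492 in the fit of all libraries, 0 with the mouse as a block (623), 2 with it as a random effect, 1391 in DESeq2, 1390 without the filter, 0 with the covariate (885), 0 without UN 2 and UN 6 (1558), and 5 to 1854 with 1 library left out, where UT 2, UT 3, UT 4, UT 5R, UT 5L, UT 9, UT 10, UN 2, UN 3, UN 6 and UN 7 each moved the count by over 1.5 times. UN against U, with 2139, gave 1301 with the random effect, 157 with the ureters of a mouse summed, and 1605 to 2682 with 1 library left out. BBN against untreated bladder, with 2409 (1373 higher), gave 5662 in the fit of all libraries, 5799 in DESeq2 (4646 higher) and 1024 to 2711 with 1 library left out, each untreated bladder moving it by over 1.5 times. U against untreated bladder, with 2889, gave 4602 with the mouse as a block, 4590 with these libraries alone, 4653 with ureters summed besides, and 1709 to 2681 with 1 library left out, untreated bladders 1 and 3 moving it by over 1.5 times. UN against BBN bladder, with 3473, gave 1460 with the block, and UT against BBN bladder, with 5468, gave 1198 with the block and 2057 without the low-integrity libraries. The difference of differences, with 419 (330 higher), gave 925 in DESeq2 (440 higher) and 1028 without the low-integrity libraries, UN 2, UN 6 and bladder 6. On TMM-scaled totals the untreated bladder means were 71.5 CPM for Fgfr1, 79.7 for Fgfr2, 84.6 for Fgfr3 and 22.2 for Fgfrl1.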

Other observations

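One treated mouse had a cancer side library from each ureter. Fgfr3 was 158 CPM in UT 5R and 328 CPM in UT 5L, Fgfr2 was 36.2 and 81.9 CPM, and Fgfr1 was 60.2 and 51.4 CPM. These are values of single libraries and were not tested.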
